A study of Mus musculus with 6 samples.

Results

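Immediate early genes are switched on within minutes of a stimulus by transcription factors that already sit in the cell, without new protein synthesis, and most of their mRNAs are short-lived. The 10 genes described here were Nr4a1, Nr4a2 and Nr4a3, which encode the NR4A orphan nuclear receptors, Fos, Fosb, Jun and Junb, which encode subunits of the dimeric transcription factor AP-1, the zinc finger transcription factor genes Egr1 and Egr3, and Ier2, a small immediate early gene of the nucleus. In the heart, genes of this group are known to respond to stretch, adrenergic stimulation and ischemia. The members were taken by gene symbol from the 38293 genes of the deposited count table. The set was drawn up because Nr4a3 had a low p for genotype in these same data, and the question was whether the other 9 genes followed it. The difference of Nr4a3 between the genotypes is therefore a description here and carries no test.

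Transcripts were counted in the hearts of 6 adult males, 3 of them Zeb2 fl/fl (WT in the sample labels) and 3 Zeb2 cKO, all on a backcrossed C57BL/6J background and all 14 days after permanent occlusion of the LAD artery. Both groups carried the floxed Zeb2 alleles, and the Zeb2 cKO mice also carried a Cre transgene under the Myh6 promoter, which is active in cardiomyocytes. Sham hearts were not analysed here, so the effect of the infarct itself was not measured. The labels place the tissue in the border region of the infarct, whereas the methods name the remote zone. Libraries held 37288174 to 51136331 counted reads, of which 60.5% to 67.0% came from mitochondrially encoded genes, leaving 14301225 to 19024394 reads for all other genes.

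Levels are given in CPM, read counts scaled to the normalized size of the library, as means with ± for the SD over the 3 mice of a genotype. The 8 cardiomyocyte markers summed to between 31613 and 62264 CPM, and the transcripts of all other heart cells were read together with those of cardiomyocytes. In such bulk tissue, fewer cells of a type and less RNA per cell cannot be told apart. Zeb2 itself had means of 83.1 ± 29.0 CPM (Zeb2 fl/fl) and 66.2 ± 6.51 CPM (Zeb2 cKO). Its log2 fold change was -0.33 (SE 0.25) and -0.0058 without Zeb2 fl/fl replicate 2. These whole-tissue counts thus did not resolve the cardiomyocyte deletion at this number of mice. The paper reports that qPCR and immunofluorescence showed the loss of ZEB2 from cardiomyocytes after infarction. Zeb2 fl/fl replicate 2 stood apart from the other 5 libraries. The 6 fibroblast markers of this library summed to 9253 CPM against 1585 to 2237 CPM elsewhere, its 7 macrophage markers to 321 CPM against 87.8 to 119 CPM, and its cardiomyocyte markers to 31613 CPM against 51314 to 62264 CPM. With all libraries, the median log2 fold changes of the lists were -1.22 for fibroblasts, -0.90 for macrophages, -0.78 for neutrophils, 0.15 for endothelial cells, 0.18 for cardiomyocytes and 0.18 for smooth muscle. The genes with the smallest p in these lists were Col1a1 (-1.47), Lgals3 (-1.90), Csf3r (-0.73), Kdr (0.27), Pln (0.27) and Tagln (-0.40). Without Zeb2 fl/fl replicate 2 they were at -0.091, -0.66, 0.0078, 0.016, 0.11 and 0.058.

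All 10 members passed the filter on low counts and were among the 14746 genes tested. Per length of their exons, their levels fell into a higher and a lower tier. Jun was the highest, with a mean RPKM, the CPM divided by the exon length in kilobases, of 6.25 over the 6 libraries. Junb (3.42 RPKM), Fos (3.41 RPKM), Egr1 (3.39 RPKM), Nr4a1 (3.12 RPKM) and Ier2 (2.22 RPKM) followed, and each overlapped its neighbour in this order across the libraries. Nr4a3 came 5.20-fold below Ier2, at 0.427 RPKM, and this was the only step in the order at which the libraries of neighbouring genes did not overlap. Nr4a2 (0.201 RPKM), Egr3 (0.103 RPKM) and Fosb (0.0550 RPKM) were the lowest, and the last of these rested on 8 to 32 reads per library. In the NR4A, FOS, JUN and EGR families alike, the same gene gave the largest share of the level per length in every library. Nr4a1 held 65.7% to 88.6% of the NR4A level in the 6 libraries, Egr1 held 71.6% to 89.6% of the EGR level and Fos 49.6% to 76.4% of the FOS level. In Zeb2 cKO replicate 3, Fos (49.63%) was nearly level with Fosl2 (49.57%), another FOS gene. The JUN level was spread more evenly, with 35.6% to 48.1% from Jun, 19.0% to 29.2% from Junb and 30.6% to 36.0% from Jund, the third JUN gene. In Zeb2 fl/fl replicate 3, Jun (35.6%) was only just above Jund (35.1%). The gene that prompted the question, Nr4a3, thus supplied 5.52% to 23.6% of the NR4A level.

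Nr4a3, also known as NOR-1, had 4.09, 2.96 and 3.02 CPM in the Zeb2 fl/fl hearts, in the order of replicates 1 to 3 that is kept below, against 1.52, 1.96 and 1.81 CPM with Zeb2 deleted. Every Zeb2 cKO library was below every Zeb2 fl/fl library. The means were 3.36 ± 0.634 CPM and 1.76 ± 0.223 CPM, or 47.5% lower in Zeb2 cKO, and the log2 fold change was -0.93 (SE 0.20). These values rested on 116 to 154 reads per Zeb2 fl/fl library and 76 to 97 per Zeb2 cKO library. Over 12 alternative settings of the analysis the log2 fold change of Nr4a3 stayed between -1.01 and -0.76, and it was -1.01 without Zeb2 fl/fl replicate 2. Nr4a3 ranked 6 by p among the 14746 genes, and its rank was what chose it.

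Junb, which encodes a JUN subunit of AP-1, was the member that came closest to this pattern. Zeb2 fl/fl hearts gave 11.6, 7.31 and 9.22 CPM of Junb, and Zeb2 cKO hearts gave 5.90, 7.05 and 6.07 CPM. Its groups did not overlap either, although the lowest Zeb2 fl/fl library (7.31 CPM) was close to the highest Zeb2 cKO library (7.05 CPM). The means were 9.39 ± 2.16 CPM and 6.34 ± 0.624 CPM, and the log2 fold change was -0.57 (SE 0.19, 95% interval -1.02 to -0.11). An exact permutation test over the 6 libraries gave a two-sided p of 0.1, the smallest that 3 against 3 allows. By edgeR's quasi-likelihood test the unadjusted p of Junb was 0.0213 and its Benjamini-Hochberg adjusted p was 0.957, so its difference did not pass the adjustment over all genes. The unadjusted p was under 0.05 in 8 of 12 alternative settings and lost that side without Zeb2 fl/fl replicate 1 (-0.38), without Zeb2 cKO replicate 1 (-0.52) or 3 (-0.54), and with the replicate number as a block (-0.55), each value being the log2 fold change under that setting. Without Zeb2 fl/fl replicate 2 it was -0.72. Junb shares 173 exonic bases with Prdx2, a peroxiredoxin gene on the opposite strand with means of 83.7 ± 9.44 and 89.6 ± 8.88 CPM. Whether reads were counted by strand is not given in the sources used here, and the part of Prdx2 reads in the Junb level was not tested.

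**Figure D1:**
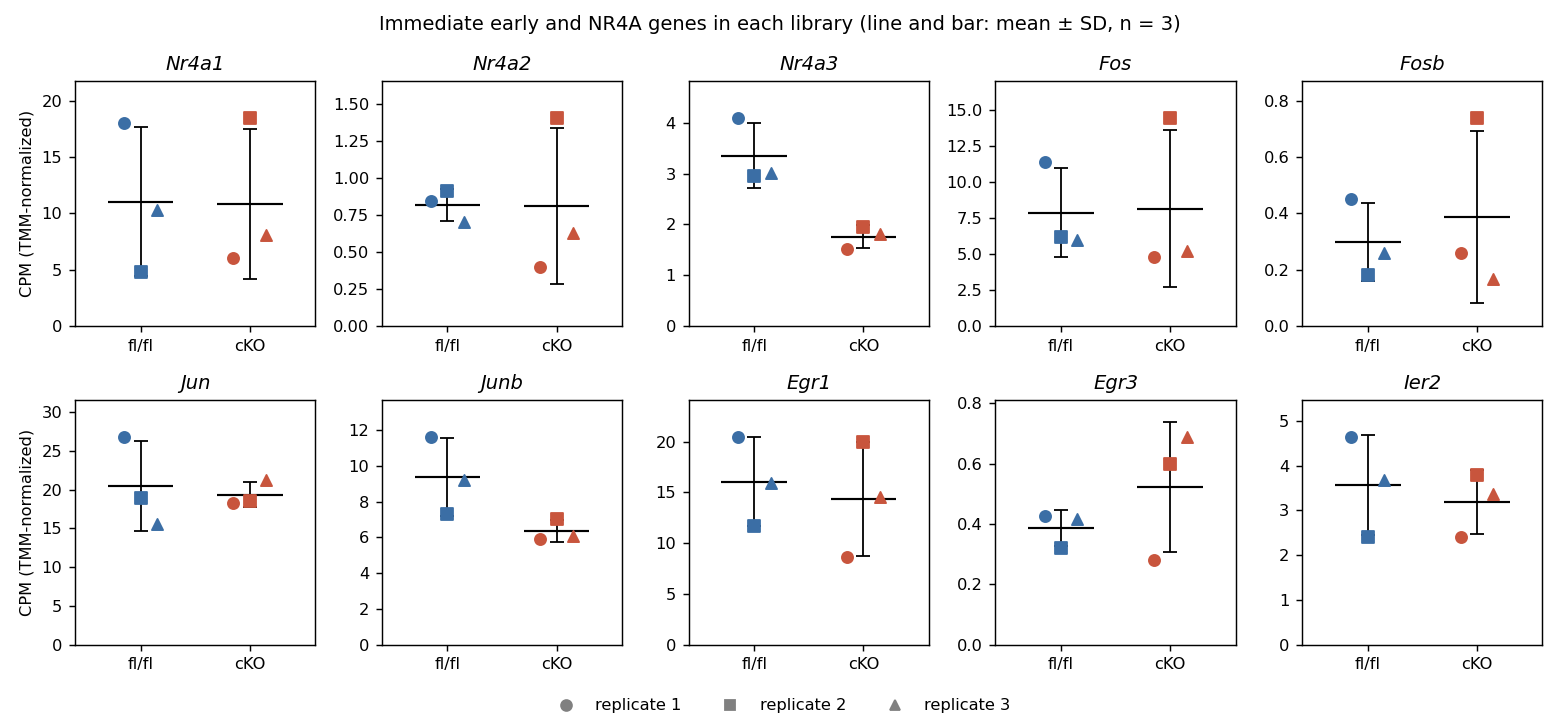
Normalized CPM (y axis) of each of the 10 genes in the 3 Zeb2 fl/fl (blue) and 3 Zeb2 cKO (red) libraries, with the replicate shown by the symbol and the mean ± SD by the line and bar; each panel has its own axis from 0. Nr4a3 and Junb are the only panels in which all red points lie below all blue points, and Zeb2 cKO replicate 2 (red square) is the highest library for Nr4a1, Nr4a2, Fos and Fosb.

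The sequences just upstream of the start sites of Nr4a3 and Junb are shown together with those of Nr4a1 and Fos, relatives of each family whose groups overlapped, so that the promoters of members with and without overlapping groups can be read side by side. They are the bases before the RefSeq start site on GRCm38.p6, read 5′ to 3′ on the strand of the gene, and capitals mark TGACG on either strand, the core of the cAMP response element (CRE) to which CREB proteins bind. For Nr4a3 (gene at chr4:48045153-48086447, + strand) only the first 98 of 250 bases are printed, chr4:48045055-48045152, since the remaining 152 lie in the first exon of the Gencode model. For Junb (gene at chr8:84974484-84978718, - strand), Nr4a1 (chr15:101254269-101274795, + strand) and Fos (chr12:85473890-85477273, + strand) the windows are chr8:84978749-84978998, chr15:101266596-101266845 and chr12:85473640-85473889, and the window of Nr4a1 precedes an internal start of the Gencode gene.
Nr4a3: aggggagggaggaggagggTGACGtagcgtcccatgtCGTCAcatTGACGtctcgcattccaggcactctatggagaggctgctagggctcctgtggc
Nr4a1: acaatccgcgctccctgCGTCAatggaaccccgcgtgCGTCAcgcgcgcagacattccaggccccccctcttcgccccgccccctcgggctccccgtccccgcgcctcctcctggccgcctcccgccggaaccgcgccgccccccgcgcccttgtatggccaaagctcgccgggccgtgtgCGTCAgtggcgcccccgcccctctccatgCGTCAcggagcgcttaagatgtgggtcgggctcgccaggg
Junb: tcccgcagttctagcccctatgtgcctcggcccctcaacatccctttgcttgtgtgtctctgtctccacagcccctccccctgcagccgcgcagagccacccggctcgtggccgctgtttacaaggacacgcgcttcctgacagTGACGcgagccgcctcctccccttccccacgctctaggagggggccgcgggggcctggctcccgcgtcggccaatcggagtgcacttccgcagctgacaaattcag
Fos: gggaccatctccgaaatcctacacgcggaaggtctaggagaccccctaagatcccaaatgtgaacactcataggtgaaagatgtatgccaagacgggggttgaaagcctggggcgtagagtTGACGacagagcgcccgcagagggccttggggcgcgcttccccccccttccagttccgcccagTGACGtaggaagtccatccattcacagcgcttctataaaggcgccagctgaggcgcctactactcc
RefSeq windows of 250 bases were given for 7 of the 10 members (not for Egr1, Egr3 and Ier2), and 6 of these 7 held at least 1 TGACG, compared with 17.8% of 32851 windows of the same length over all genes. Nr4a1, Nr4a2 and Nr4a3 held 4 each, Fos held 2, Junb and Fosb held 1 each and Jun held none. Of the 4 in Nr4a3, 3 lay before the Gencode exon and 1 within it. The complete CRE, TGACGTCA, of which TGACG is a part, was in none of the 7 windows and in 1.55% of all windows. None of the 7 held a CArG box, the site of serum response factor (1.47% of all windows), the AP-1 site TGANTCA (6.75%) or the NR4A site AAAGGTCA (1.34%). CACCTG, the E-box that ZEB proteins bind, was found in the window of Fosb only, at 2 places, and in 17.2% of all windows. Both strands were searched for every motif, and these matches describe letters in a window, not binding. Bases outside the windows were not searched, so a motif missing from a window may still lie elsewhere near the gene.

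The other 8 members did not show the pattern of Nr4a3. In each of them the 2 groups overlapped, the log2 fold changes lay between -0.16 and 0.44, all 8 intervals held 0, and the adjusted p in edgeR's quasi-likelihood test was 0.957 or higher. The intervals of Egr3, Ier2 and Jun did not reach down to the -0.93 of Nr4a3. Those of Nr4a1, Nr4a2, Fos, Fosb and Egr1 did, so for these 5 genes a difference as large as that of Nr4a3 could not be told from none at this number of mice.

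Among the nuclear receptors, Nr4a1 (Nur77) had 18.0, 4.83 and 10.3 CPM in Zeb2 fl/fl hearts and 6.02, 18.4 and 8.04 CPM with Zeb2 deleted. Its highest values came from 1 mouse of each genotype, and the highest and lowest libraries of a genotype differed by 3.73-fold in Zeb2 fl/fl and 3.06-fold in Zeb2 cKO hearts. The group means were nearly level, at 11.0 ± 6.63 and 10.8 ± 6.66 CPM, and the log2 fold change was -0.028 (95% interval -1.36 to 1.31). For Nr4a2 (Nurr1) the values were 0.850, 0.911 and 0.703 CPM against 0.400, 1.41 and 0.633 CPM, so that Zeb2 cKO held both the lowest and the highest library. Its log2 fold change was -0.027 (95% interval -1.13 to 1.07).

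Of the AP-1 subunits, Fos had 11.4, 6.20 and 5.96 CPM in the hearts of Zeb2 fl/fl mice, compared with 4.82, 14.4 and 5.21 CPM in those of Zeb2 cKO mice. Zeb2 cKO replicate 2 was the highest of the 6 libraries and the other 2 Zeb2 cKO libraries were the lowest. The log2 fold change was 0.050 (SE 0.48, 95% interval -1.09 to 1.19). Fosb had the same arrangement of high libraries at a far lower level, with 0.451, 0.182 and 0.260 CPM against 0.260, 0.737 and 0.167 CPM, and a log2 fold change of 0.36 (SE 0.64). Jun had the narrowest interval of the 8 genes, with 26.8, 19.0 and 15.6 CPM against 18.3, 18.6 and 21.3 CPM, and its log2 fold change was -0.078 (SE 0.21, 95% interval -0.57 to 0.41). As a share of the JUN level per length, Jun held 35.6% to 41.7% in Zeb2 fl/fl and 44.3% to 48.1% in Zeb2 cKO hearts, without overlap. The level of Jun itself was not higher in Zeb2 cKO, whereas Junb (-0.57) and Jund (-0.37) had lower log2 fold changes. Of the 14 shares computed over the NR4A, FOS, JUN and EGR families, 1 other did not overlap, that of Egr3, with 1.87% to 2.29% against 2.49% to 3.69% of the EGR level. Jun shares 232 exonic bases with the antisense transcript Junos, which had means of 0.385 ± 0.0723 and 0.514 ± 0.0915 CPM with overlapping groups.

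The zinc finger gene Egr1 gave 20.5, 11.7 and 15.9 CPM in Zeb2 fl/fl mice, against 8.61, 19.9 and 14.5 CPM after deletion of Zeb2. Zeb2 fl/fl replicate 1 was the highest and Zeb2 cKO replicate 1 the lowest of the 6 libraries. Its log2 fold change was -0.16 (SE 0.33, 95% interval -0.94 to 0.62). Egr3 was the 1 member with its highest library in Zeb2 cKO replicate 3, at 0.425, 0.319 and 0.417 CPM against 0.280, 0.599 and 0.689 CPM. Its log2 fold change of 0.44 (SE 0.39) rested on 14 to 37 reads per library. Ier2 had 4.65, 2.42 and 3.67 CPM against 2.40, 3.80 and 3.37 CPM, with its lowest values in Zeb2 fl/fl replicate 2 and Zeb2 cKO replicate 1. The log2 fold change was -0.16 (SE 0.29, 95% interval -0.84 to 0.52).

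Counted over the set, no member passed an adjusted p of 0.05 by edgeR's quasi-likelihood test, and 0.0% of the 14746 genes tested did. An unadjusted p under 0.05 was reached by 280 genes, and DESeq2 called 2 genes at the adjusted threshold, both higher in Zeb2 cKO. Nr4a3 and Junb had an unadjusted p under 0.05 and were lower in Zeb2 cKO, where 0.861% of all genes were lower and 1.04% higher at that level. They were also the 2 members whose groups did not overlap, against 2.97% of all genes lower and 3.39% higher without overlap. Since Nr4a3 was chosen by its p, only Junb adds to these counts. With a log2 fold change of 0.2 as the limit, 2 members were under -0.2 (22.6% of all genes), 2, Fosb and Egr3, were over 0.2 (15.9% of all genes) and 6 lay between. The median log2 fold change of the 10 was -0.053, beside -0.0069 for all genes tested.

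Most members varied more between mice of the same genotype than the typical gene did. For Nr4a3 this spread is a description, since it enters the p that chose the gene, and a small spread also favours groups that do not overlap. The SD of log2 CPM within a genotype, pooled over both, had a median of 0.49 in the members and of 0.26 in all genes tested. Nr4a1, at 0.89, was at percentile 96.9 of all genes, Fosb (0.80) at 95.3, Fos (0.72) at 93.7 and Nr4a2 (0.63) at 90.2. Egr1, Egr3 and Ier2 were at 84.1, 80.8 and 74.9. Jun, at percentile 57.4, Junb, at 49.9, and Nr4a3, at 42.8, varied about as much as the general run of genes. For genes with many reads the spread was far above counting error. The SD of Nr4a1 was 13.4 times, that of Fos 9.34 times and that of Egr1 9.20 times what its reads alone would give. The SDs of Nr4a3 (1.62 times), Egr3 (1.47 times) and Fosb (2.12 times) were closer to counting error.

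**Figure D2:**
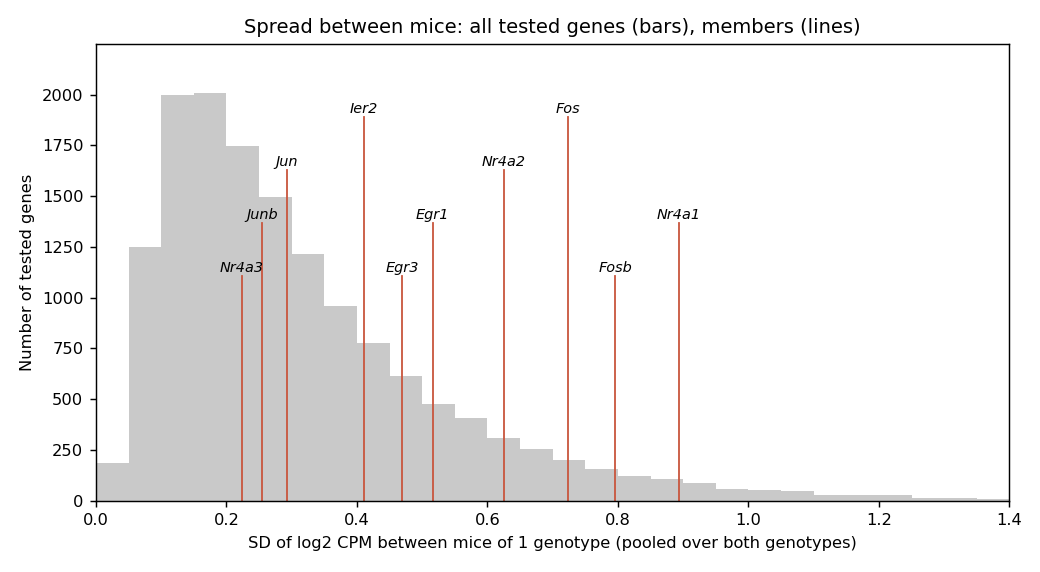
Histogram of the SD of log2 CPM between mice of 1 genotype, pooled over both genotypes, for the 14746 genes tested (x axis, drawn up to 1.4; y axis, number of genes), with a line at each of the 10 members. Nr4a3, Junb and Jun lie in the main body of the histogram and Nr4a1, Fosb, Fos and Nr4a2 in its right tail.

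The spread ran in the same direction for most members, heart by heart. Relative to each gene's mean over the 6 libraries, the 10 members averaged 0.50, -0.26 and -0.0015 on the log2 scale in Zeb2 fl/fl replicates 1 to 3 and -0.52, 0.45 and -0.17 in Zeb2 cKO replicates 1 to 3. Zeb2 fl/fl replicate 1 was above the gene's mean for 9 of the 10 members and Zeb2 cKO replicate 2 for 7, whereas Zeb2 cKO replicate 1 was below it for all 10. Zeb2 fl/fl replicate 1 was the highest library for 5 members and Zeb2 cKO replicate 2 for 4, and Zeb2 cKO replicate 1 was the lowest for 7. For these 10 members, hearts with high and low levels were thus found in both genotypes. The exceptions were Egr3 in Zeb2 fl/fl replicate 1, at -0.03, and Nr4a3, Junb and Jun in Zeb2 cKO replicate 2, at -0.30, -0.11 and -0.08.

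**Figure D3:**
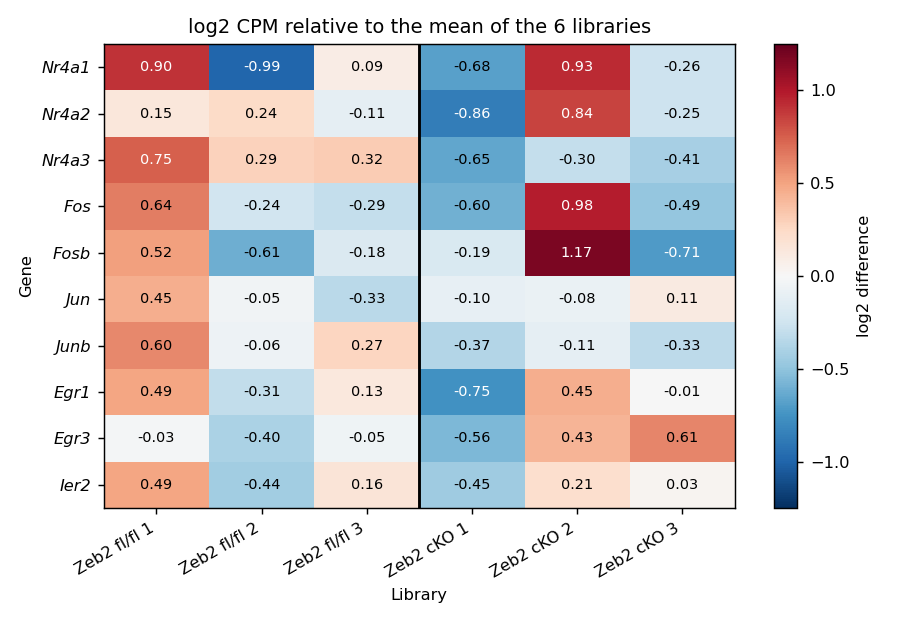
Log2 CPM of the 10 members (rows) in the 6 libraries (columns), each gene relative to its own mean over the libraries, with the value printed in each cell; the vertical line separates the genotypes. The column of Zeb2 cKO replicate 1 is below 0 for every gene, while those of Zeb2 fl/fl replicate 1 and Zeb2 cKO replicate 2 are above 0 for most.

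Over the 6 libraries the 45 pairs of members had a median Pearson r of 0.51 in log2 CPM. In 9 pairs r was over 0.8 and in 2 it was negative. The highest were Egr1 with Ier2 (0.93), Nr4a3 with Junb (0.93), Nr4a1 with Ier2 (0.92), Fos with Fosb (0.91) and Nr4a1 with Egr1 (0.89). With Nr4a3, the other members ranged from -0.14 for Egr3 and 0.11 for Fosb to 0.53 for Egr1 and 0.93 for Junb, and the order of the 6 libraries was the same for Junb and Nr4a3. An r over 0.5 with Nr4a3 was found for 3 of the 9 other members and for 9.14% of all genes tested, but this measure includes the genotype difference that chose Nr4a3. After each library was expressed as its deviation from the mean of its genotype, which removes that difference, all 9 had an r over 0.5 with Nr4a3, from 0.56 for Nr4a2 to 0.87 for Egr1 and Ier2, beside 22.0% of all genes. These values describe 6 libraries that share their depth and tissue composition with every gene compared, and with the means of both genotypes taken out they rest on few free points.

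The 5 genes whose log2 CPM followed Nr4a3 most closely over the 6 libraries, among genes of at least 1 CPM, were Gtf3c5 (r = 0.98), a subunit of the RNA polymerase III factor TFIIIC, the linker histone gene Hist1h1e (0.98), Gm12183 (0.95), Stoml1 (0.95) and the cyclin-dependent kinase gene Cdk13 (0.95). None of these is a member of the set. Their log2 fold changes were smaller than that of Nr4a3, from -0.44 for Hist1h1e (14.4 ± 1.29 against 10.6 ± 1.28 CPM) to -0.083 for Gm12183.

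For the members, the comparison of the genotypes depended on which heart was in it. Without Zeb2 cKO replicate 2, the Zeb2 cKO heart with high values of these genes, 8 of the 10 members had a log2 fold change under -0.2. The median of the set was -0.56, beside -0.0074 for all genes tested in that fit. The median of the wider immediate early list described below moved little, from -0.17 with all libraries to -0.19. Nr4a1 was then at -0.65, Nr4a2 at -0.66, Fos at -0.65, Fosb at -0.47, Egr1 at -0.47 and Ier2 at -0.31, with Jun at -0.045 and Egr3 at 0.33 as the exceptions. Of the 8 genes other than Nr4a3 and Junb, none had an unadjusted p under 0.05 in that fit, while Junb (-0.65) did. Without Zeb2 fl/fl replicate 1, the Zeb2 fl/fl heart with high values, the median turned to 0.12, with Nr4a1 at 0.52, Fos at 0.42 and Fosb at 0.79, and without Zeb2 cKO replicate 1 it was 0.18. Without Zeb2 fl/fl replicate 2, the library with high fibroblast and macrophage markers, 5 members were under -0.2 and the median was -0.23. Nr4a3 stayed at or below -0.76 and Junb at or below -0.38 whichever library was left out.

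**Figure D4:**
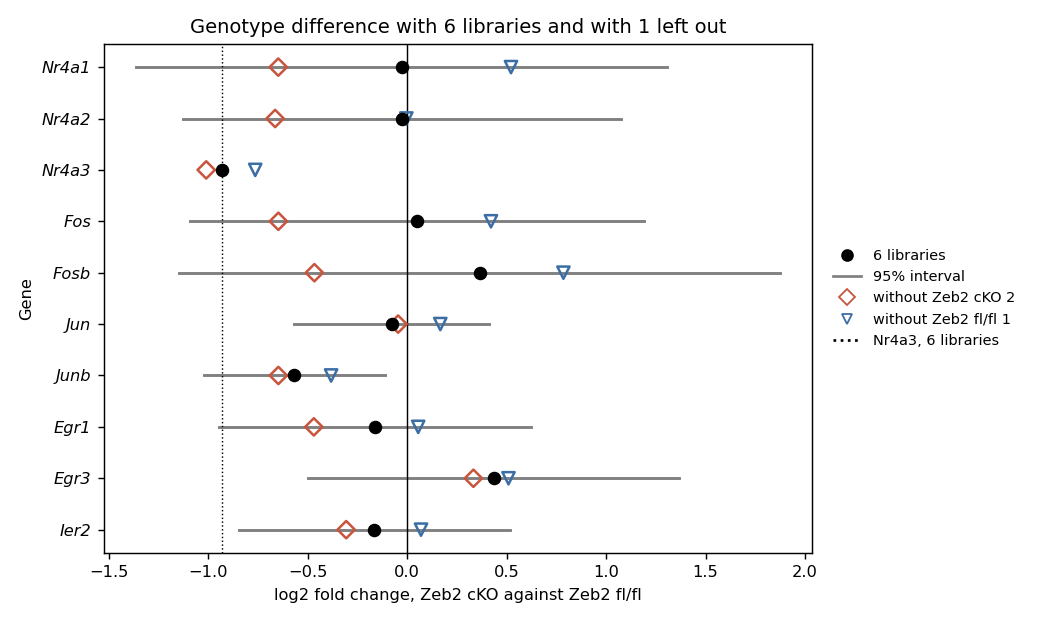
Log2 fold change of each member, Zeb2 cKO against Zeb2 fl/fl, with all 6 libraries (black, grey line for the 95% interval), without Zeb2 cKO replicate 2 (red diamonds) and without Zeb2 fl/fl replicate 1 (blue triangles); Nr4a3, whose contrast chose it, has no interval and its value is the dotted line. Nr4a1, Fos, Fosb, Jun, Egr1 and Ier2 lie on opposite sides of 0 depending on the heart left out, whereas Nr4a3 and Junb stay below 0.

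Marker lists were summed in the 2 hearts with high levels of the 10 members, Zeb2 fl/fl replicate 1 and Zeb2 cKO replicate 2. The 4 smooth muscle markers summed to 127 CPM in Zeb2 cKO replicate 2 against 59.6 to 73.6 CPM in the other 5 libraries, Zeb2 fl/fl replicate 1 (71.5 CPM) included. The 5 endothelial markers summed to 435 and 443 CPM in those 2 hearts, within the 289 to 452 CPM of all 6 libraries. The fibroblast markers summed to 1636 and 1743 CPM, and the 4 neutrophil markers, of which 3 were tested, to 1.78 and 1.50 CPM, the 2 lowest of the 6 libraries, which reached 4.88 CPM. Of 5 heat shock genes that mark handling of tissue, none passed the adjusted test and 3 were under -0.2. Hspa1a, an inducible heat shock gene with a near-identical copy that could take part of its reads, had means of 0.498 ± 0.0524 and 0.289 ± 0.0865 CPM with no overlap and a log2 fold change of -0.78, from 9 to 24 reads per library. Its lowest library was Zeb2 cKO replicate 2, in which 4 members were at their highest. Relative to each gene's mean, the 5 genes averaged 0.13, 0.18 and 0.17 on the log2 scale in Zeb2 fl/fl replicates 1 to 3. In Zeb2 cKO replicates 1 to 3 they averaged -0.13, -0.36 and 0.015. The sign was that of the members in Zeb2 fl/fl replicate 1 and Zeb2 cKO replicate 1 only. The summed level of the 5 genes was 36.0 to 42.7 CPM in Zeb2 fl/fl and 29.9 to 40.8 CPM in Zeb2 cKO hearts. The part of cell composition or handling in the spread of the members was not tested.

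A wider list of 50 further immediate early genes was read beside the members. Of the 47 that were tested, none passed the adjusted threshold, 20 were under -0.2 in log2 fold change (22.6% of all genes were) and 2 were over 0.2 (15.9%). Their median was -0.17, compared with -0.0069 for all genes, and it stayed between -0.23 and -0.091 over the alternative settings. An unadjusted p under 0.05 was reached by 2 of the 47 in the lower direction and by 0 in the higher, beside 0.861% and 1.04% of all genes. The groups did not overlap in 3, Gadd45b, Jund and Nfkbia, all lower in Zeb2 cKO, beside 2.97% of all genes lower and 3.39% higher. Egr4, the fourth EGR gene, had no reads, and Fosl1 and Npas4 did not pass the filter on low counts. Relative to each gene's mean, the list averaged 0.19, 0.095 and 0.0017 on the log2 scale in Zeb2 fl/fl replicates 1 to 3. In Zeb2 cKO replicates 1 to 3 it averaged -0.21, -0.11 and 0.038. Zeb2 cKO replicate 2, high for the members, was thus below the mean for this list. Zeb2 fl/fl replicate 2, low for the members, was above it.

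Among the named genes of this list, Gadd45b, a stress-induced gene of growth arrest, gave 1.89, 3.42 and 1.46 CPM in Zeb2 fl/fl mice, compared with 0.899, 1.24 and 0.819 CPM in Zeb2 cKO mice. All Zeb2 cKO libraries were below all Zeb2 fl/fl libraries, the log2 fold change was -1.20 (SE 0.36), and without Zeb2 fl/fl replicate 2, the highest library, it was -0.76. Maff, a small MAF transcription factor gene, had overlapping groups and a log2 fold change of -0.70 (4.29 ± 1.36 and 2.64 ± 0.708 CPM), or -0.41 without that library. Ccn2, which encodes connective tissue growth factor and is made in quantity by fibroblasts, was at 80.8, 340 and 87.5 CPM against 39.0, 49.0 and 93.1 CPM. Its highest value was again in Zeb2 fl/fl replicate 2, the library with the high fibroblast markers, and its log2 fold change went from -1.49 to -0.48 without it. On the higher side, Bhlhe40, a transcriptional repressor tied to the circadian clock, had means of 20.3 ± 1.54 and 25.4 ± 4.24 CPM (log2 fold change 0.32), followed by Arc (0.42), best known from neurons, and Crem (0.17), a relative of CREB. Without Zeb2 fl/fl replicate 2 these 3 were at 0.26, 0.19 and 0.16. Each of these 6 genes had an adjusted p of 0.957 in edgeR's quasi-likelihood test.

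**Figure D5:**
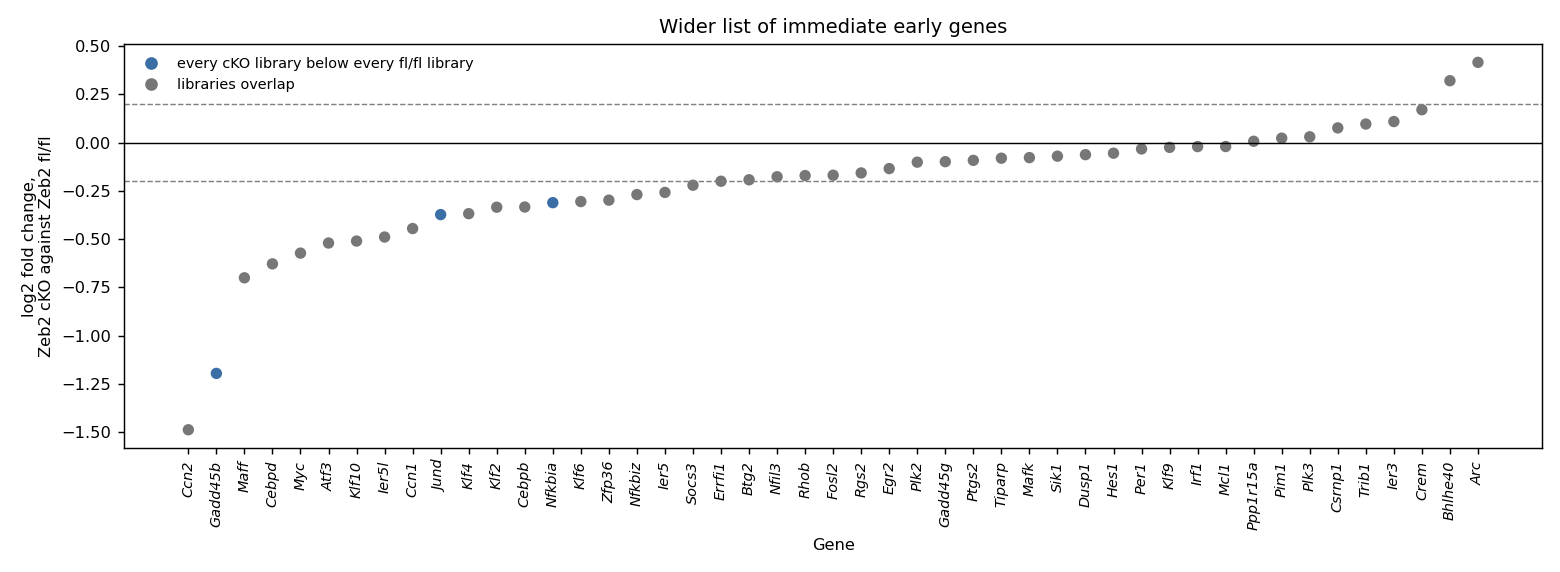
Log2 fold change, Zeb2 cKO against Zeb2 fl/fl, of the 47 tested genes of the wider immediate early list in order of size, with dashed lines at -0.2 and 0.2; blue points are genes whose 3 Zeb2 cKO libraries were all below the 3 Zeb2 fl/fl libraries. More genes lie under -0.2 (20) than over 0.2 (2), and the lowest are Ccn2 and Gadd45b.

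The genes that act on the members from above mostly lay close to 0 in log2 fold change. Of 25 regulators, among them serum response factor, its ternary complex and MRTF partners, CREB proteins and their CRTC coactivators, MEF2 factors, MAP kinases and class IIa histone deacetylases, 2 were under -0.2, 1 was over 0.2 and the median was 0.023. The smallest p among them belonged to Mrtfa, a coactivator of serum response factor that responds to actin, with 5.87, 7.82 and 6.12 CPM against 3.66, 4.91 and 5.49 CPM. Its groups did not overlap, and its log2 fold change was -0.49 (SE 0.20), or -0.35 without Zeb2 fl/fl replicate 2, with an adjusted p of 0.957 in edgeR's quasi-likelihood test.

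The dimer partners and inhibitors of the members were read in the same way, beside 22.6% of all genes under -0.2 and 15.9% over 0.2. Of 7 tested partners of AP-1, 4 were under -0.2 and none over 0.2. Of the 3 retinoid X receptor genes, whose proteins pair with Nr4a1 and Nr4a2, only Rxrg was over 0.2, at 0.35 (15.2 ± 5.53 and 19.4 ± 5.83 CPM), and it was at 0.081 without Zeb2 fl/fl replicate 2. Among 12 genes of feedback on the response, which include the EGR corepressors Nab1 and Nab2, the MAP kinase phosphatases of the DUSP family and Sprouty genes, 4 were under -0.2 and 1, Dusp10, was over 0.2. Dusp10, a phosphatase of the JNK and p38 kinases, had 4.09, 2.92 and 2.99 CPM against 5.80, 4.84 and 4.02 CPM. The highest Zeb2 fl/fl library exceeded the lowest Zeb2 cKO library, and the log2 fold change was 0.55 (SE 0.21). None of the partners, regulators or inhibitors passed the adjusted threshold.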

How the data were processed

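RNA was sequenced from the hearts of 6 mice post-MI, as ribosomal RNA-depleted, stranded, single-end libraries of 75-base reads. The authors aligned the reads to GRCm38 (mm10) and counted them per gene of Gencode M4 with the STAR workflow; the deposited values are raw counts without normalization, and the strand option of the counting is not given in the sources used here. The submitters' processing notes name DESeq 1.2.

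Counts were normalized with the trimmed mean of M values (TMM), genes were filtered with the defaults of filterByExpr, and Zeb2 cKO was compared with Zeb2 fl/fl by the quasi-likelihood test of edgeR 4.0.16 (R 4.3.3) with Benjamini-Hochberg adjustment over the 14746 genes kept; DESeq2 1.42.0 was an alternative. CPM are TMM-normalized, log2 CPM carry a prior count of 2, and RPKM use exon-union lengths of Gencode M21, from which symbols and positions were also taken. The biological coefficient of variation was 0.243. Exact permutation tests over the libraries were two-sided. A BLAST 2.17.0 search of the longest transcript of each member for stretches of at least 75 bases and 95% identity in another gene found one in Jun (7.28% of its length, shared with its antisense Junos); the bases that Junb shares with Prdx2 lie outside its longest transcript. The fit was tested on simulated counts. It called 40 of 100 genes with a simulated log2 change of 1 in size, 99 of 100 with a change of 2 and 4 of 14417 with none. A change of 1 was thus missed more often than called. Counts per library set the precision of each value, and p-values measure the spread between 3 mice of each genotype.

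The members and gene lists were chosen with earlier results of these data known. Named genes were all 10 members, Zeb2, the 5 genes most correlated with Nr4a3, the 3 genes of the wider list with the smallest unadjusted p in each direction, and the gene with the smallest p of each of the other lists, of which 1 is not reported here. Replicate numbers come from the sample titles and were not used to pair the mice in the main fit. Alternatives were another normalization (relative log expression), no filter, robust dispersion, removal of mitochondrially encoded genes, a replicate block, DESeq2 and leaving out each library.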

Additional observations from a re-analysis of the deposited data

How the results depend on the processing

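Nr4a3, Junb and Egr3 kept the sign of their log2 fold change under all 12 alternatives, and no member passed an adjusted p of 0.05 in edgeR or DESeq2 under any of them. Leaving out 1 library at a time gave log2 fold changes of -0.65 to 0.52 for Nr4a1, -0.66 to 0.30 for Nr4a2, -0.65 to 0.42 for Fos, -0.47 to 0.79 for Fosb, -0.24 to 0.17 for Jun, -0.47 to 0.10 for Egr1 and -0.38 to 0.070 for Ier2, a median of the members of -0.56 to 0.18, 2 to 8 members under -0.2, and 1 or 2 members with an unadjusted p under 0.05. The lowest of these medians and the 8 members were found without Zeb2 cKO replicate 2, and the highest median without Zeb2 cKO replicate 1. Over all genes, the unadjusted calls ran from 47 to 827 lower and 75 to 307 higher when 1 library was left out, the most without Zeb2 fl/fl replicate 1. Without the filter on low counts they were 326 lower and 274 higher, a fit that tested more genes, and DESeq2 gave 217 lower and called 2 genes higher at the adjusted threshold; the cause was not tested.

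The correlations of same-numbered deviations were 0.088, -0.14 and -0.087, within the -0.26 to 0.24 of differently numbered ones. They gave no sign that replicate numbers pair the mice, but could not exclude it. With the replicate block, Fos turned to -0.075, 1 member (Nr4a3) had an unadjusted p under 0.05, the median of the members was -0.11, and 100 genes lower and 147 higher had an unadjusted p under 0.05, with 0 past the adjusted threshold. With 3 mice of each genotype the intervals of 5 members hold both 0 and the value of Nr4a3, and for Fosb and Egr3, with 8 to 37 reads per library, counting error limits the values further.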
